A study of Mus musculus with 18 samples.

Results

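The antiviral effector genes of the type I interferon response were followed through mouse macrophages treated with dimethyl itaconate (DI), lipopolysaccharide (LPS) or both, and through macrophages lacking Irg1. The members were chosen as a list of 35 mouse gene symbols, each matched to an Entrez gene identifier of the deposited count tables. All 35 were found among the 24052 genes of both tables. Of these, 34 held enough counts to be tested in both experiments. Ddx60, a helicase of the RNA-sensing group, had 0 counts in all 18 libraries, so its level was below what 3 counts allow, 0.292 to 5.45 CPM (counts scaled to a common library total) depending on the library.

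In macrophages, LPS is read by Toll-like receptor 4, whose TRIF branch activates the transcription factor IRF3 and switches on Ifnb1, the gene of interferon beta. Secreted interferon beta then acts on the receptor pair IFNAR1 and IFNAR2 and, through a transcription factor complex that holds IRF9, raises the transcription of genes that block viral replication. These effectors sense viral RNA, cut or trap it, tag proteins with ISG15, starve polymerases of usable nucleotides or hold virions at the membrane. Itaconate, the metabolite made by the enzyme that Irg1 (now Acod1) encodes, is a product of LPS-activated macrophages, and DI is a membrane-permeable ester related to it.

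The 3' ends of polyadenylated RNA were sequenced in 18 libraries of bone marrow-derived macrophages from C57BL/6 mice, matured for 7 days with 20 ng/ml M-CSF. In experiment 1, all cells were wild type and formed 4 groups of 3 libraries. DI+LPS cells received 0.25 mM DI for 12 h and then 100 ng/ml LPS from E. coli 0111:B4 for 4 h, LPS cells received vehicle and then the same LPS, DI cells received 0.25 mM DI for 12 h with no LPS, and vehicle cells received neither. In experiment 2, 3 libraries of Irg1-/- cells were set against 3 of wild-type cells, and all 6 were stimulated for 24 h with LPS at 100 ng/ml plus interferon gamma at 50 ng/ml. Experiment 2 therefore holds no unstimulated cells and no cells without interferon gamma. These are cells cultured from marrow with M-CSF, not tissue macrophages, and the labels do not say whether replicates were separate animals or separate cultures, so a p-value here speaks of the spread among these libraries, which may be technical. In bulk RNA, fewer cells expressing a gene and less RNA of it per cell cannot be told apart.

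Library totals lay between 955718 and 7629669 counts in experiment 1 and between 3088644 and 5491684 in experiment 2. Levels below are CPM on totals scaled by TMM factors, listed in replicate order, and fold changes are log2 estimates ± standard error. A gene was called when its adjusted p over all tested genes was under 0.05, which covered 10285 genes in experiment 1 and 9491 in experiment 2. The knockout was visible in its own gene, since Acod1 had 28.5, 14.9 and 31.5 CPM in Irg1-/- libraries, against 4142, 4677 and 4237 CPM in wild-type libraries. Among the LPS libraries, replicate 3 differed from its fellows. It had the fewest counts of all libraries, 28.5% of tested genes were at 0 in it, Prdx1 took 17.6% of its counts, and it correlated with the other LPS libraries at 0.825 and 0.813 where these 2 correlated at 0.916 (all other replicate pairs reached at least 0.940). Prdx1 took 3.81% and 3.28% of counts in the other LPS libraries and 9.27%, 8.70% and 14.1% in DI+LPS libraries. It took 5.11%, 6.55% and 4.70% in DI libraries and 1.34%, 2.03% and 1.49% in vehicle libraries. Why LPS replicate 3 differed was not tested. For 25 of 34 members this library was below both other LPS libraries and for 7 above both, with a median ratio of 0.657 to their mean. Counts of members called are given with and without it, and a member's value without it is added where it made or ended a call named here or moved a fold by over 1.5 times.

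All 8 macrophage markers were detected in every group. Their summed level was 3414 to 4618 CPM in DI+LPS libraries, 2951 to 3888 CPM in LPS libraries, 3460 to 5051 CPM in DI libraries and 7519 to 10535 CPM in vehicle libraries, on unscaled totals. It was 2092 to 2738 CPM in Irg1-/- libraries and 2282 to 2714 CPM in wild-type libraries. Plasmacytoid dendritic cells are another known source of interferon. Of their 6 markers, 3 were detected in DI+LPS cells, 4 in LPS cells, 4 in DI cells and 5 in vehicle cells, with Klk1 at 0 throughout. They summed to 2.68 to 5.36 CPM in DI+LPS libraries, 5.23 to 10.5 CPM in LPS libraries, 0.751 to 2.10 CPM in DI libraries and 4.81 to 7.18 CPM in vehicle libraries. In experiment 2 they summed to 34.7 to 46.9 CPM in Irg1-/- libraries and 36.1 to 50.5 CPM in wild-type libraries. Neutrophil markers summed to 215 to 338 CPM in DI+LPS libraries, 150 to 290 CPM in LPS libraries, 179 to 320 CPM in DI libraries and 350 to 517 CPM in vehicle libraries, over 7 markers in the table of which Mpo was at 0 in both LPS-treated groups. The T and NK cell list did not pass 1.06 CPM in any library and the B cell list did not pass 4.14 CPM. Conventional dendritic cell markers did not pass 5.23 CPM in experiment 1 and reached 11.4 CPM in Irg1-/- and 13.3 CPM in wild-type libraries. Stromal cell markers summed to 20.0 to 32.4 CPM in DI+LPS, 15.3 to 40.4 CPM in LPS, 22.5 to 29.4 CPM in DI and 41.4 to 73.6 CPM in vehicle libraries. The sum of every list but that of conventional dendritic cells was lower in all DI libraries than in all vehicle libraries. Whether these differences between groups bear on the members was not tested.

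The promoters of 26 of the 35 members were matched in RefSeq promoter windows on GRCm38.p6, which run from 250 bases before to 50 bases after a gene's start. A core of the interferon-stimulated response element, GAAA NN GAAA with N any base, or TTTC NN TTTC read on the other strand, stood in the windows of 14 of these 26 genes (53.8%). By window it stood in 16 of their 31 windows, while 3.44% of all 32851 windows of the same length held it. The gamma-activated sequence TTCNNNGAA, which reads the same on both strands, stood in 5 of 26 genes (19.2%) and 5 of 31 windows, against 8.30% of all windows. A kappa B motif, GGGA NN TTCC or GGAA NN TCCC read on the other strand, stood in 3 of 26 genes (11.5%), namely Ifnb1, Ifit2 and Isg20, and in 3 of 31 windows, against 1.47% of all windows. A match of letters is a description of the window and not a bound site. The 250 bases before the start are shown for Ifnb1, Isg15, Ifit1, Rsad2, Slfn8 and Ifi44, whose levels carry the comparisons below, read 5' to 3' on the gene's strand, with matches to the kappa B motif (Ifnb1) or to the response element core (all others) in capitals. The letters in capitals in Ifnb1 belong to the NF-kappa B element of the interferon beta enhancer known as PRDII.
Ifnb1: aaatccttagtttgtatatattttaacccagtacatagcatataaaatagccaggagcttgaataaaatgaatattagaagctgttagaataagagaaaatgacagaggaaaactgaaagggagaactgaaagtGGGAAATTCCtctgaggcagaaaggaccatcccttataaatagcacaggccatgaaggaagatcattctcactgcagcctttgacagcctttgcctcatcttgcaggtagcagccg
Isg15: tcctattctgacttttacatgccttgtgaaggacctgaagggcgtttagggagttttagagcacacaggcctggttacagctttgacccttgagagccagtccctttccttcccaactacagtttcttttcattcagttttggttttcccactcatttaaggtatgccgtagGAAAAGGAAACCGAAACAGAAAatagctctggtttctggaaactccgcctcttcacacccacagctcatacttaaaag
Ifit1: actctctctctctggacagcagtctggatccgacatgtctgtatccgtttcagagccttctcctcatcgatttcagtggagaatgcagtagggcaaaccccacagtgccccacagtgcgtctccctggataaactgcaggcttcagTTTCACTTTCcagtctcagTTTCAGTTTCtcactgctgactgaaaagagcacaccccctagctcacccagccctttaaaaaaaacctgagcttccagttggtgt
Rsad2: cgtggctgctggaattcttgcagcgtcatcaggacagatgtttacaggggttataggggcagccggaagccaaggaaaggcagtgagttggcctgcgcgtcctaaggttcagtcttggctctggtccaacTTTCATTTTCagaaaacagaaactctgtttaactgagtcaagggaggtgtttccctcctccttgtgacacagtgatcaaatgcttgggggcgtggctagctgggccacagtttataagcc
Slfn8: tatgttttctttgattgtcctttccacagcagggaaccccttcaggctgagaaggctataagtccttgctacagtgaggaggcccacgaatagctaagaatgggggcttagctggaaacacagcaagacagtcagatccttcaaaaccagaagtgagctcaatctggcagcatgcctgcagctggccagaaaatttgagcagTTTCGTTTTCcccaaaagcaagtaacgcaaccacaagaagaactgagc
Ifi44: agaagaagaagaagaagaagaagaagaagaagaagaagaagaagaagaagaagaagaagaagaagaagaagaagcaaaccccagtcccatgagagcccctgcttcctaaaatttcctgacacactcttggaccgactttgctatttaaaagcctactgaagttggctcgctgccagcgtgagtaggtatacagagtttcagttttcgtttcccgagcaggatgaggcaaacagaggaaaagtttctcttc
They span chr4:88522795-88523044 (minus strand) for Ifnb1, chr4:156200819-156201068 (minus) for Isg15, chr19:34640639-34640888 (plus) for Ifit1, chr12:26456453-26456702 (minus) for Rsad2, chr11:83020811-83021060 (minus) for Slfn8 and chr3:151749911-151750160 (minus) for Ifi44. Isg15 held 3 overlapping matches that begin 78, 72 and 66 bases before the start, Ifit1 held 2 that begin 104 and 85 bases before it, and Rsad2 and Slfn8 held 1 each in the window shown. Ifi44 held none of the 3 motifs in its window, and it was called in 4 of the comparisons below.

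Members took up a large part of all RNA counts once LPS was present. Together they made up 4.45% ± 0.514 of counts in DI+LPS libraries, 7.30% ± 1.60 in LPS libraries, 0.194% ± 0.0443 in DI libraries and 0.222% ± 0.0130 in vehicle libraries (SD, n = 3 each). In experiment 2 the share was 3.84% ± 0.502 in Irg1-/- libraries and 4.43% ± 0.457 in wild-type libraries (SD, n = 3 each). Much of this was Rsad2 (viperin), the radical SAM enzyme that makes a chain-terminating nucleotide. It alone held 2.01% to 2.81% of counts in DI+LPS libraries and 2.64% to 5.24% in LPS libraries, and at most 0.0815% of counts in any library of experiment 1 without LPS.

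**Figure D1:**
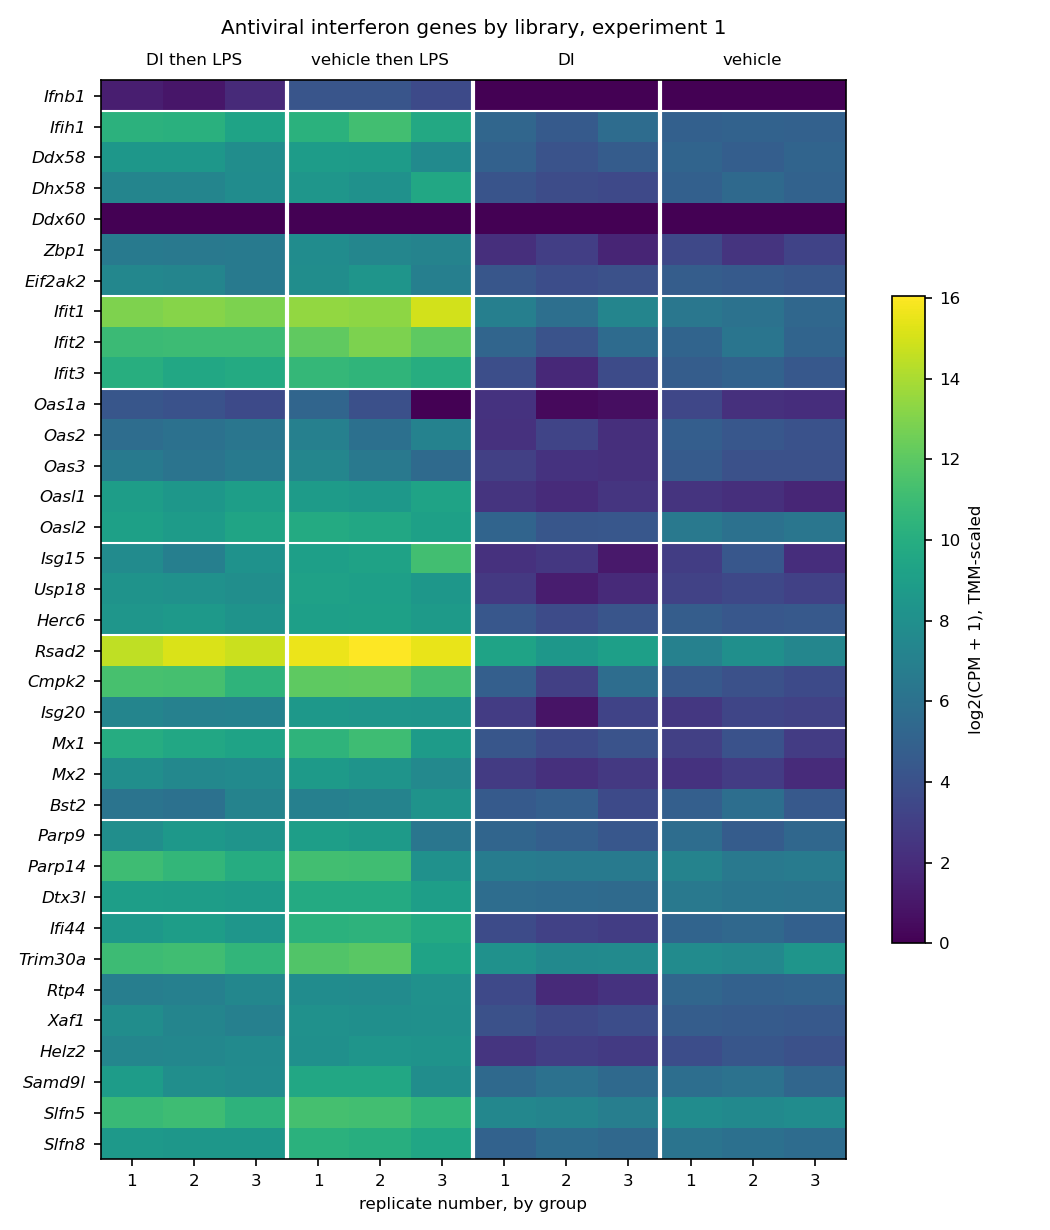
Level of each of the 35 members (rows, in the order of their roles) in each of the 12 libraries of experiment 1 (columns), as log2(CPM + 1) on a colour scale. Every row but Ddx60 is brighter in the 6 libraries with LPS on the left than in the 6 without, apart from Oas1a, which is at 0 in LPS replicate 3.

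LPS raised nearly the whole list over vehicle, which addresses how strongly the antiviral programme is switched on after 4 h. Of 34 tested members, 33 were higher in LPS cells, none was lower and Oas1a did not pass, where 16.0% of all tested genes were higher and 18.4% lower. The median log2 change was 4.16 over the members, also with Ifnb1 at its lower bound, and -0.24 over all tested genes. In 33 members every LPS library lay above every vehicle library, which held for 16.6% of all genes.

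Ifnb1 itself had 17.9, 17.4 and 10.9 CPM in LPS libraries and 0 counts in all 3 vehicle libraries. The 91 counts over the LPS group put it at least 110-fold higher than a floor of 3 counts over the vehicle group. It was at 0 in all 6 libraries without LPS. In every DI+LPS library its counts (8, 3 and 9) stayed under the filter's level of 2.36 CPM, which is on unscaled totals. It therefore passed the filter on low counts through the LPS group, the higher one here, and it is in both counts of 33 above. All other tested members but Oas1a were called higher too. The other 33 tested members reached the filter's level in all 3 vehicle libraries.

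Among the effectors, the largest rises came from the genes next to each other on chromosome 12, Rsad2 (26442743 to 26456452) and Cmpk2 (26469117 to 26479837), a mitochondrial nucleotide kinase, and from Ifit1 on chromosome 19 (34640889 to 34650009), which binds RNA that lacks the host's cap marks. Rsad2 had 48363, 67614 and 45924 CPM in LPS libraries, against 129, 251 and 164 CPM in vehicle libraries (log2 8.22 ± 0.49, adjusted p = 1.37e-09). Ifit1 had 11129, 10407 and 31350 CPM in LPS libraries, against 80.7, 64.0 and 40.3 CPM in vehicle libraries (log2 8.16 ± 0.60, adjusted p = 1.22e-08). Cmpk2 had 4286, 4482 and 2412 CPM in LPS libraries, against 20.9, 15.0 and 11.4 CPM in vehicle libraries (log2 7.88 ± 0.66, adjusted p = 5.43e-08). The groups were far apart for all 3 genes, and LPS replicate 3 was the highest LPS library for Ifit1 and the lowest for the other two. With that library left out the Ifit1 change was 7.48, below that of Mx1 (7.61).

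By role, the OAS family was the most divided. Oasl1, which in mice is known to restrain Irf7, rose by 7.16 ± 0.41 on the log2 scale, while the enzymes Oas2 and Oas3, which make the oligoadenylates that activate RNase L, rose by 2.35 ± 0.41 and 2.52 ± 0.42. Oas1a had 37.1, 14.1 and 0 CPM in LPS libraries, against 9.63, 3.75 and 3.37 CPM in vehicle libraries (log2 1.73 ± 0.80, adjusted p = 0.104). It overlapped between groups through the zero in LPS replicate 3, and without that library it was called too (log2 2.20, adjusted p = 0.0113), which brought the count to 34 of 34 higher and none lower (18.3% and 19.6% of all genes).

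The ISG15 system rose as a group. Isg15, the ubiquitin-like tag itself, rose by 6.95 ± 0.78 (6.01 without LPS replicate 3), Usp18, the protease that removes it and also dampens the interferon receptor, by 5.88 ± 0.43, and Herc6, its ligase in mice, by 4.51 ± 0.33. All 5 tested sensors rose, with a median of 3.73. Among them Ifih1 (MDA5), a sensor of long double-stranded RNA, rose by 5.56 ± 0.47, Ddx58 (RIG-I) by 3.54 ± 0.38, and Zbp1, which binds Z-form nucleic acid, by 4.46 ± 0.43. Of the Mx GTPases, Mx1, whose C57BL/6 allele makes no working protein, rose by 7.14 ± 0.59 and Mx2 by 6.19 ± 0.43, whereas Bst2 (tetherin), which holds budding virions on the cell, rose by 2.41 ± 0.47. The partners Parp9 and Dtx3l and the ADP-ribosyltransferase Parp14 rose by 3.11 to 3.87. The remaining 8 regulators, Ifi44, Trim30a, Rtp4, Xaf1, Helz2, Samd9l, Slfn5 and Slfn8, rose by 2.79 (Rtp4) to 5.02 (Ifi44).

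Cells pretreated with DI still switched the list on. In DI+LPS cells, 34 of 34 tested members were higher than in DI cells, and none was lower, where 11.4% of all genes were higher and 7.56% lower. In all 34 every DI+LPS library lay above every DI library, which held for 22.3% of all genes, while in another 22.3% every one lay below. The median log2 change was 4.50 over the members (4.45 with Ifnb1 at its lower bound) and -0.06 over all genes. Without LPS replicate 3, which is in neither group but enters the filter, the scaling and the spread, it was again 34 of 34 (14.6% of all genes higher, 12.0% lower). Ifnb1 had 1.57, 0.919 and 2.80 CPM in DI+LPS libraries and 0 counts in DI libraries, and its 20 counts put it at least 13.9-fold higher than a floor of 3 counts over the DI group. It is in both counts of 34, although it passed the filter on low counts only through the LPS group, which is not compared here. With only the DI+LPS and DI libraries fitted it was not tested, and the 33 members with a value were all called higher.

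The called genes with the largest changes were Oasl1, Ifit3, Usp18 and Cmpk2. Oasl1 had 494, 355 and 515 CPM in DI+LPS libraries, against 4.24, 2.98 and 4.51 CPM in DI libraries (log2 6.84 ± 0.40, adjusted p = 6.25e-09). Ifit3, which works in a complex with Ifit1 in human cells, had 1054, 789 and 914 CPM in DI+LPS libraries, against 13.4, 2.65 and 11.4 CPM in DI libraries (log2 6.63 ± 0.51, adjusted p = 3.94e-08). Usp18 had 306, 277 and 247 CPM in DI+LPS libraries, against 5.42, 1.49 and 2.83 CPM in DI libraries (log2 6.38 ± 0.44, adjusted p = 1.22e-08). For these 3 genes DI replicate 2 was the lowest library of all 6. Cmpk2 had 2606, 2518 and 1393 CPM in DI+LPS libraries, against 28.2, 7.28 and 53.0 CPM in DI libraries (log2 6.19 ± 0.61, adjusted p = 5.97e-07). Oas1a was the one call that rested on single libraries: its change of 3.17 ± 0.86 fell short of the threshold without DI replicate 2 (log2 2.74, adjusted p = 0.0684), DI replicate 3 (2.73, 0.0788) or DI+LPS replicate 1 (2.98, 0.0524).

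**Figure D2:**
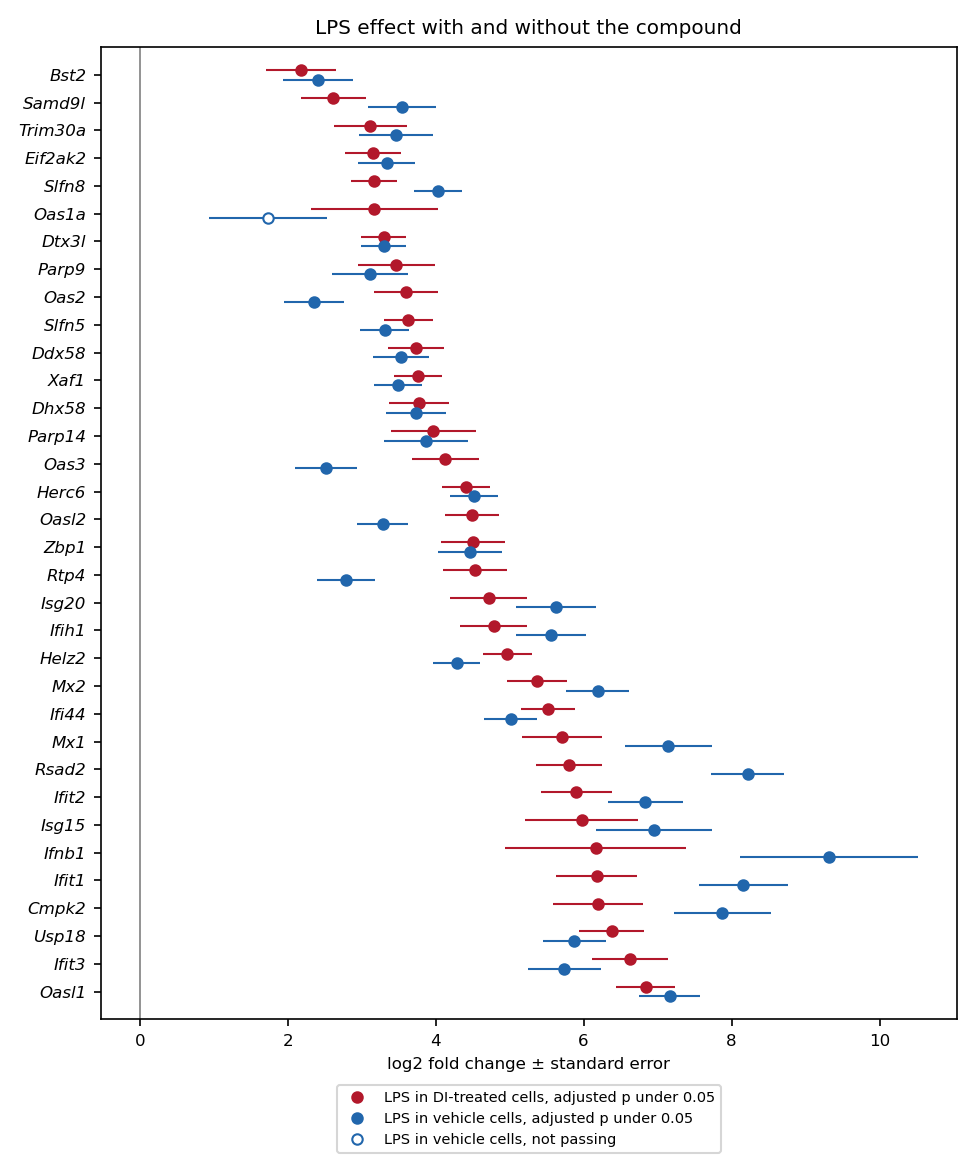
Log2 fold change ± standard error of each tested member after LPS, in DI-pretreated cells (red, DI+LPS over DI) and in vehicle cells (blue, LPS over vehicle); filled points passed the threshold. All points lie right of 0, and Oas1a in vehicle cells is the open one; the Ifnb1 points are fitted values against groups with 0 counts and are no bound.

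Cells given DI before LPS had lower levels of Ifnb1, Isg15, Ifi44, Slfn8, Ifit2 and Dhx58 than cells given LPS alone. The comparison of DI+LPS with LPS cells addresses whether the compound alters the LPS-driven programme. All 34 estimates were negative, also with DESeq2 size factors. On unscaled totals those of Oasl1 and Parp14 were positive, and with replicate number as a block those of Oas1a, Parp9 and Parp14. With 1 library left out up to 4 were positive. The median of the 34 was -0.72 where that of all genes was 0.13. Of the members, 6 were called lower (7.53% of all genes were) and 0 higher (8.38% of all genes). Ifnb1 had passed the filter through the LPS group, the higher one here, and 5 of the other 33 members were called. In 16 members every DI+LPS library was below every LPS library, which held for 10.7% of all genes. In edgeR 17 of 34 had an unadjusted p under 0.05, each with a negative estimate. Over all 10285 genes 3039 had such a p, in either direction. DESeq2 called 13 members lower (9.93% of all genes) and 0 higher (9.18% of all genes). Without LPS replicate 3, 16 members were called lower (9.06% of all genes), among them 5 of the 6, and 0 higher (9.27% of all genes). The others were Usp18, Rsad2, Isg20, Zbp1, Eif2ak2, Mx1, Mx2, Dtx3l, Trim30a, Helz2 and Samd9l. Their log2 changes ran from -1.38 (Isg20) to -0.76 (Helz2).

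Ifnb1 had 1.57, 0.919 and 2.80 CPM in DI+LPS libraries, against 17.9, 17.4 and 10.9 CPM in LPS libraries. The groups did not overlap, and the lowest LPS library was above the highest DI+LPS library. These rest on 20 counts in the DI+LPS group and 91 in the LPS group, a ratio of 0.101 on scaled totals (95% interval 0.0592 to 0.166, counting error only). The log2 change was -3.15 ± 0.76 (adjusted p = 0.0122), and -3.34 without LPS replicate 3 (adjusted p = 0.00784). With no filter on low counts it was -3.13 (adjusted p = 0.00390). The call was lost without DI+LPS replicate 1 (log2 -3.06, adjusted p = 0.0615) or replicate 2 (-2.86, 0.0547).

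Isg15 had 217, 122 and 289 CPM in DI+LPS libraries, against 537, 601 and 2338 CPM in LPS libraries (log2 -2.46 ± 0.63, adjusted p = 0.0128). All DI+LPS libraries were lower, and LPS replicate 3 was far above the other LPS libraries. Without it the change was -1.46 (adjusted p = 0.0360), and the call was lost without DI+LPS replicate 1 (-2.41, 0.0567) or replicate 2 (-2.18, 0.0774). The other members of the ISG15 system, Usp18 (-0.84 ± 0.34, adjusted p = 0.106) and Herc6 (-0.51 ± 0.28, adjusted p = 0.236), did not pass, although Usp18 did without LPS replicate 3 (-1.03, adjusted p = 0.0230).

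Ifi44, an interferon-induced protein, and Slfn8, a Schlafen family protein, were the calls that held whichever library was left out. Ifi44 had 371, 477 and 338 CPM in DI+LPS libraries, against 1237, 1338 and 876 CPM in LPS libraries (log2 -1.54 ± 0.31, adjusted p = 0.00243). Slfn8 had 384, 363 and 358 CPM in DI+LPS libraries, against 1194, 1065 and 734 CPM in LPS libraries (log2 -1.44 ± 0.29, adjusted p = 0.00265). The DI+LPS libraries of Slfn8 lay within a narrow band, and LPS replicate 3 was the lowest LPS library for both genes. Without it the changes were -1.72 for Ifi44 and -1.64 for Slfn8 (adjusted p = 0.000162 and 0.000128). Slfn5, of the same family, differed by -0.24 ± 0.30 and did not pass (adjusted p = 0.636).

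Ifit2, a translation-blocking relative of Ifit1, fell by 1.42 on the log2 scale (± 0.40, adjusted p = 0.0220), to 1937, 2034 and 2083 CPM in DI+LPS libraries, against 4532, 7396 and 4214 CPM in LPS libraries. Dhx58 (LGP2), a sensor that modulates the other RNA helicases, fell by 1.35 (± 0.37, adjusted p = 0.0188), to 156, 159 and 227 CPM in DI+LPS libraries, against 343, 271 and 776 CPM in LPS libraries. In both genes the groups were apart, and for Dhx58 the difference leaned on LPS replicate 3: without it the change was -0.79 (adjusted p = 0.0608). The Dhx58 call was also lost without DI+LPS replicate 1 (-1.20, 0.0970) or 2 (-1.26, 0.0843), and the Ifit2 call without LPS replicate 2 (-1.08, 0.0942) or any 1 DI+LPS replicate (-1.41 to -1.37, adjusted p 0.0724 to 0.0955).

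Rsad2, Ifit1 and Isg20 were among the 17 members with an unadjusted p under 0.05, but not among the 6 that passed the adjusted threshold. Rsad2 had 23506, 35350 and 27481 CPM in DI+LPS libraries, against 48363, 67614 and 45924 CPM in LPS libraries, with no overlap (log2 -0.91 ± 0.36, adjusted p = 0.101). Ifit1 had 7912, 8973 and 7417 CPM in DI+LPS libraries, against 11129, 10407 and 31350 CPM in LPS libraries (log2 -1.12 ± 0.45, adjusted p = 0.0992). Isg20, a 3' to 5' RNA exonuclease, had 157, 131 and 137 CPM in DI+LPS libraries, against 378, 350 and 333 CPM in LPS libraries (log2 -1.32 ± 0.44, adjusted p = 0.0505). Without LPS replicate 3, Rsad2 was called (-1.03, adjusted p = 0.0342), as was Isg20 (-1.38, adjusted p = 0.0225, and also without DI replicate 2, -1.31, adjusted p = 0.00699), while the Ifit1 change was -0.43 (adjusted p = 0.419). At the other end of the list stood Parp14 (-0.06 ± 0.51), Oasl1 (-0.09 ± 0.30), Parp9 (-0.14 ± 0.47) and Oas3 (-0.20 ± 0.39). LPS replicate 3 was the lowest LPS library for Parp14, Parp9 and Oas3. With it left out their changes were -0.58, -0.63 and -0.54, none of them called, where the members' median was -0.80. Oasl1 had 494, 355 and 515 CPM in DI+LPS libraries, against 447, 376 and 633 CPM in LPS libraries, so the groups overlapped, and its sign turned on unscaled totals (0.14) and without LPS replicate 3 (0.12) or DI+LPS replicate 2 (0.07).

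**Figure D3:**
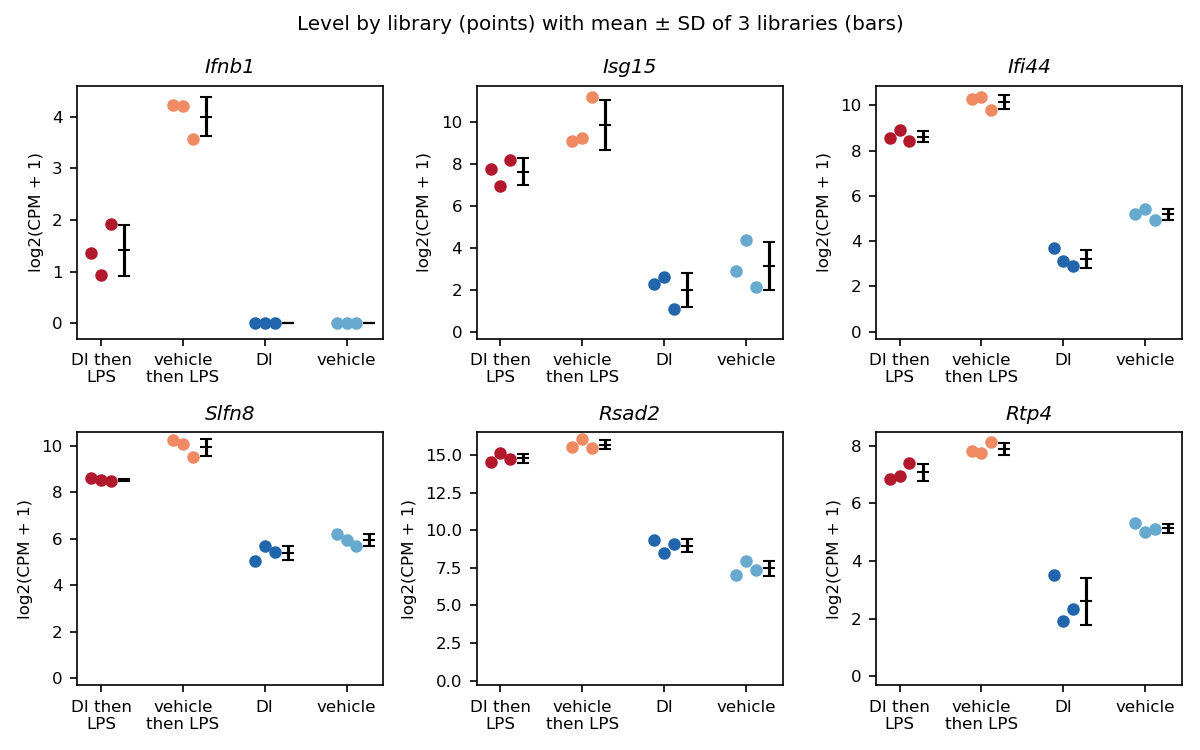
Level of 6 members in the 12 libraries of experiment 1, as log2(CPM + 1); points are libraries in replicate order and bars the mean ± SD of 3 libraries. The groups named DI then LPS (DI+LPS cells) and vehicle then LPS (LPS cells) show Ifnb1, Isg15, Ifi44 and Slfn8 lower in all DI+LPS libraries, while Rsad2 is higher and Rtp4 lower in all DI libraries than in vehicle libraries.

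DI alone changed the resting level of 7 members, 6 of them downward. Against vehicle cells, 6 members were lower (1.51% of all genes were), Rsad2 was higher (1.33% of all genes), and 27 of 34 did not pass. Of the 33 members with counts, 26 estimates were negative and 7 positive, with a median of -0.56 where the median of all genes was -0.05. In 13 members all DI libraries were below all vehicle libraries, which held for 16.0% of all genes, and in 1, Rsad2, all were above, which held for 14.6% of all genes. The 6 lower members were Rtp4, Ifi44, Oas2, Oas3, Oasl2 and Helz2.

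Rtp4, a chaperone that helps receptors reach the cell surface, had 10.5, 2.81 and 4.09 CPM in DI libraries, against 38.7, 31.0 and 34.0 CPM in vehicle libraries (log2 -2.56 ± 0.40, adjusted p = 0.00135). Ifi44 had 11.8, 7.61 and 6.40 CPM in DI libraries, against 35.5, 42.2 and 29.2 CPM in vehicle libraries (log2 -2.04 ± 0.32, adjusted p = 0.00141). These groups did not overlap and both calls held whichever library was left out. Oas2 had 3.89, 8.60 and 3.57 CPM in DI libraries, against 27.2, 19.7 and 15.7 CPM in vehicle libraries (log2 -1.99 ± 0.42, adjusted p = 0.0116). Oas3 differed by -1.80 ± 0.43, Oasl2 by -1.64 ± 0.33 and Helz2, a helicase, by -1.43 ± 0.30 (adjusted p = 0.0253, 0.00773 and 0.0103). The other OAS members, Oasl1 (0.23 ± 0.36) and Oas1a (-1.78 ± 0.84, adjusted p = 0.356), did not pass.

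Rsad2 went the other way. It had 640, 363 and 542 CPM in DI libraries, against 129, 251 and 164 CPM in vehicle libraries (log2 1.51 ± 0.37, adjusted p = 0.0316). All DI libraries were above all vehicle libraries. Its neighbour Cmpk2 had 28.2, 7.28 and 53.0 CPM in DI libraries, against 20.9, 15.0 and 11.4 CPM in vehicle libraries, which overlapped (log2 0.90 ± 0.51, adjusted p = 0.464). Ifnb1 had 0 counts in all DI and all vehicle libraries.

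Several of these calls rested on single libraries. The Rsad2 call was lost without vehicle replicate 1 or 3, DI replicate 1 or 3, or DI+LPS replicate 1 (log2 1.32 to 1.53, adjusted p 0.0538 to 0.178). Oas2 was lost without vehicle replicate 1, DI replicate 1 or DI replicate 3 (-1.80 to -1.73, adjusted p 0.0847 to 0.0928), and Oasl2 without DI replicate 2 or 3 (-1.50 to -1.47, 0.0651 to 0.0686). Oas3 was lost without vehicle replicate 1 or 3, DI replicate 2 or 3, or DI+LPS replicate 1 or 3 (-1.91 to -1.54, adjusted p 0.0536 to 0.156), and Helz2 without vehicle replicate 2 or DI replicate 1 or 3 (-1.43 to -1.27, 0.0546 to 0.0870). Without LPS replicate 3, again in neither group, Dhx58, Ifit3 and Usp18 were also called lower, making 9 lower (3.28% of all genes), beside Rsad2 alone higher (4.27% of all genes). Dhx58 was also called without LPS replicate 2 (-1.37, adjusted p = 0.0352).

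The effect of DI without LPS and after LPS was compared in pairs of groups that share no library. Of 33 members with both values, 26 (78.8%) were lower in both, 7 were higher with DI alone and lower after LPS, and none was higher in both. As every estimate after LPS was negative, this split follows from the signs with DI alone. On unscaled totals Oasl1 and Parp14 were positive after LPS, so Oasl1 was then higher in both. Oasl1 was also higher in both without LPS replicate 3 or DI+LPS replicate 2, and Ifih1 without LPS replicate 2. Over all 10285 genes, 28.2% were lower in both, 1653 were higher with DI alone and lower after LPS, and 3164 were higher in both. Ifi44 was the member called lower in both, as were 77 of all 10285 genes. The 7 with opposite signs were Ifih1, Ifit1, Oasl1, Rsad2, Cmpk2, Mx1 and Mx2, of which only Rsad2 was called, with DI alone.

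**Figure D4:**
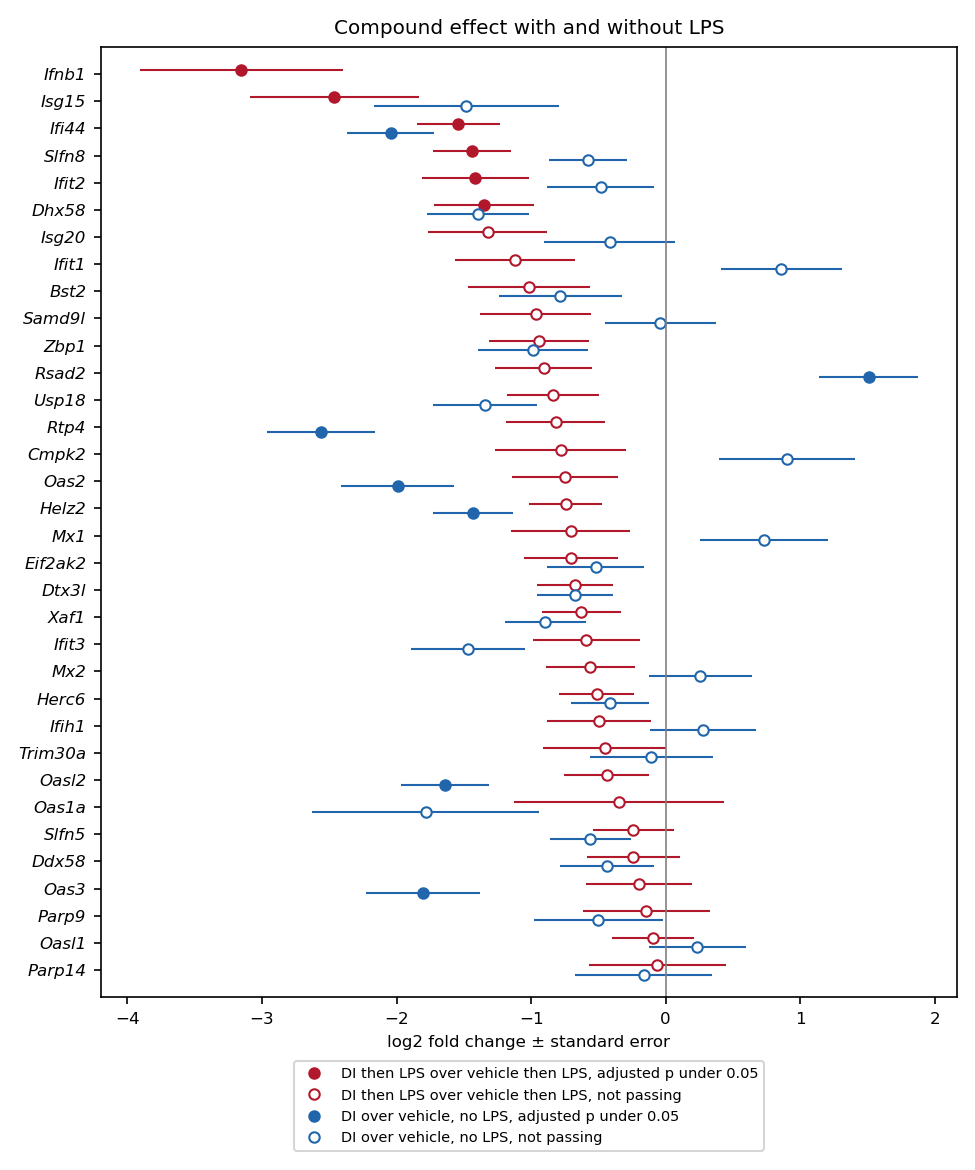
Log2 fold change ± standard error of each tested member with DI, after LPS (red, DI+LPS over LPS) and without LPS (blue, DI over vehicle); filled points passed the threshold. All red points lie left of 0 in the fit shown, and Ifi44 is the member with both points filled. On unscaled totals, with a replicate block or with some libraries left out, up to 4 red points do not lie left of 0. Ifnb1 has no blue point because it was at 0 in both groups.

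Rsad2 was the member whose response to DI differed between the conditions by test. The interaction, the DI effect after LPS minus the DI effect without LPS, was -2.41 ± 0.52 on the log2 scale for Rsad2 (adjusted p = 0.0157). Its DI effect was -0.91 after LPS and 1.51 without. None of the other members passed, where 1.52% of all genes were called lower and 1.39% higher. Of the 33 members with a value, 17 were positive and 16 negative, with a median of 0.0016 where all genes had 0.17. On unscaled totals 21 were positive and 12 negative (median 0.34, all genes 0.52), and with LPS replicate 3 left out 13 and 20 (median -0.13, all genes 0.12). Rtp4 (1.74 ± 0.53, adjusted p = 0.0872), Ifit1 (-1.98 ± 0.63, adjusted p = 0.0994) and Oas3 (1.61 ± 0.58, adjusted p = 0.144) followed by size of p. For Rtp4 and Oas3 the DI effect was larger without LPS (-2.56 and -1.80) than after it (-0.82 and -0.20), and Ifit1 had an effect of 0.86 without LPS and -1.12 after it. Oas3 had 96.4, 71.4 and 98.3 CPM in DI+LPS libraries, against 162, 90.5 and 45.4 CPM in LPS libraries, which overlapped. Without LPS it had 7.31, 4.13 and 3.67 CPM in DI libraries, against 23.1, 14.6 and 14.9 CPM in vehicle libraries, which did not. Rtp4 had 116, 124 and 169 CPM in DI+LPS libraries, against 225, 214 and 282 CPM in LPS libraries, so it was lower in all libraries with DI in both settings. Ifit1 without LPS had 120, 58.0 and 158 CPM in DI libraries, against 80.7, 64.0 and 40.3 CPM in vehicle libraries, and these overlapped. Ifnb1 could not be compared in this way because it had no counts without LPS.

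The interaction depended on single libraries as well. The Rsad2 call was lost without vehicle replicate 1 (-2.22, adjusted p = 0.0563) or 3 (-2.34, 0.0595), DI replicate 1 (-2.22, 0.0604), or DI+LPS replicate 1 (-2.29, 0.0701) or 3 (-2.38, 0.0505). Without LPS replicate 3 it was -2.56 (adjusted p = 0.00122), and Mx1 (-1.91, adjusted p = 0.0156) and Rtp4 (1.82, 0.0301) were called too (4.33% of all genes lower, 3.26% higher), while Ifit1 was -1.32 (0.0894). Rtp4 was also called without DI replicate 1 (2.49, 0.0117), and Oas3 without LPS replicate 1 (2.17, 0.0350).

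Genes upstream of the effectors were read from lists of the sensing, interferon regulatory factor and brake genes. With LPS alone, 10 of 18 sensing and TRIF-IRF3 genes, 6 of 7 tested interferon regulatory factors and 6 of 13 brakes were higher than in vehicle cells (16.0% of all genes were), and these counts did not change without LPS replicate 3. Mavs, the adaptor of the RNA sensors, was the 1 listed gene that was lower (-1.27 ± 0.43, adjusted p = 0.0281; 18.4% of all genes were lower). The largest called changes across these lists were Socs3 (9.62 ± 0.52) and Socs1 (8.99 ± 0.56, and 8.34 without LPS replicate 3), inhibitors of JAK-STAT signalling.

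After DI and LPS, against LPS alone, 5 of 18 sensing genes were lower and 1 higher, 2 of 7 interferon regulatory factors were lower and 4 of 13 brakes were lower, where 7.53% of all genes were lower and 8.38% higher. The largest called changes were Irf8, a transcription factor of the myeloid lineage (-3.58 ± 0.45, adjusted p = 4.27e-05), Tlr9, an endosomal DNA receptor (-3.07 ± 0.37, adjusted p = 2.77e-05), and the brakes Socs1 (-2.92 ± 0.41) and Socs3 (-2.70 ± 0.36). Chosen after its value was seen, as were Mavs and Ikbke, the LPS receptor Tlr4 was the 1 higher gene (1.95 ± 0.37, adjusted p = 0.00165). With LPS replicate 3 left out these were -2.81 for Irf8, -2.92 for Tlr9, -2.23 for Socs1, -2.64 for Socs3 and 1.64 for Tlr4. The counts then stayed at 5 lower and 1 higher for sensing genes and 4 lower for brakes, with 1 brake higher, and 3 of 7 interferon regulatory factors were lower, among them Irf7 (-1.13).

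With DI alone, against vehicle, 3 of 18 sensing genes were lower (1.51% of all genes), as was 1 of 7 interferon regulatory factors, Irf7, the interferon-inducible factor that amplifies the response (-1.97 ± 0.40, adjusted p = 0.00892). Among the sensing genes was Ikbke, a kinase of IRF3 (-1.87 ± 0.30, adjusted p = 0.00155). Socs3 was higher (2.08 ± 0.47, adjusted p = 0.0179), the single brake of 13 that passed (1.33% of all genes were higher). With LPS replicate 3 left out 4 sensing genes were lower and 1 higher, Irf9 joined Irf7, and Socs1 joined Socs3 (1.68, adjusted p = 0.00348), where 3.28% of all genes were lower and 4.27% higher.

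Among other interferon-induced families, the guanylate-binding proteins are GTPases that attack vacuoles of intracellular microbes, and the p200 proteins sense or bind DNA. After DI and LPS, against LPS alone, 6 of 8 tested guanylate-binding proteins were lower with a median of -1.93, and 3 of 10 p200 genes were lower with a median of -0.76, beside 6 of 34 antiviral members with a median of -0.72 (7.53% of all genes were lower). In the interaction, 3 of the 8 guanylate-binding proteins and 1 of the 10 p200 genes were called lower, beside 1 of 34 members (1.52% of all genes). The largest called changes after LPS were Gbp4 (-4.25 ± 0.47, adjusted p = 1.32e-05) and Gbp8 (-3.92 ± 1.29, adjusted p = 0.0459), and without LPS replicate 3 these were -4.51 and -2.60 (adjusted p = 0.167 for Gbp8, which was then not called). With that library left out the counts after LPS became 7 of 9 guanylate-binding proteins, 7 of 10 p200 genes and 16 of 34 members (9.06% of all genes), and in the interaction 5 of 9, 2 of 10 and 2 of 34 (4.33%). The difference between these families was not tested.

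No member passed the test between Irg1-/- and wild-type cells after 24 h of LPS and interferon gamma, unless same-numbered libraries were paired. Comparing Irg1-/- with wild-type cells addresses whether endogenous itaconate limits these genes. In the fit without pairing, 0 of 34 tested members were called in either direction, where 0.0105% of all genes were higher and 0.0527% lower. DESeq2 also called 0 members. In edgeR 1 member had an unadjusted p under 0.05, as did 665 of all 9491 genes. The median log2 change was -0.05 over the members and 0.01 over all genes, and the estimates ran from -0.54 to 0.48. In 4 members all Irg1-/- libraries were below all wild-type libraries, which held for 7.23% of all genes, and in 0 they were above (6.13% of all genes).

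Same-numbered libraries of the 2 genotypes moved together, as Ifih1 shows. It had 813, 421 and 180 CPM in Irg1-/- libraries and 825, 415 and 181 CPM in wild-type libraries, so its level followed the replicate number and the genotypes overlapped. With replicate number as a block, 5 members were called lower and 1 higher (3.36% and 2.90% of all genes). The labels do not say what a replicate number marks, and the pairing was judged from these same data. The blocked fit has fewer residual degrees of freedom than the 4 of the fit without it. It was not repeated with libraries left out. The lower ones were Rsad2, Oasl1, Cmpk2, Ifit3 and Parp14, and the higher one was Isg15.

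Oasl1 had 296, 199 and 346 CPM in Irg1-/- libraries, against 389, 360 and 474 CPM in wild-type libraries (log2 -0.54 ± 0.22, adjusted p = 0.667; with the block -0.56 ± 0.10, adjusted p = 0.000164). Rsad2 had 17428, 13561 and 11617 CPM in Irg1-/- libraries, against 24660, 18341 and 16779 CPM in wild-type libraries (log2 -0.49 ± 0.23, adjusted p = 0.726; with the block -0.49 ± 0.08, adjusted p = 3.35e-05). Ifit3 had 405, 458 and 506 CPM in Irg1-/- libraries, against 565, 560 and 603 CPM in wild-type libraries (log2 -0.34 ± 0.17, adjusted p = 0.791; with the block -0.34 ± 0.09, adjusted p = 0.0191). In each of the 3 genes every Irg1-/- library was below the wild-type library of the same number, and the groups overlapped only for Rsad2. Helz2 had 67.2, 58.4 and 70.5 CPM in Irg1-/- libraries, against 94.0, 67.4 and 85.6 CPM in wild-type libraries (log2 -0.33 ± 0.20, adjusted p = 0.841), which overlapped, and it was not called with the block.

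Isg15 was higher in each pair, with 144, 324 and 229 CPM in Irg1-/- libraries, against 104, 239 and 157 CPM in wild-type libraries (log2 0.48 ± 0.33, adjusted p = 0.893; with the block 0.49 ± 0.10, adjusted p = 0.00173). Cmpk2 had 1944, 603 and 901 CPM in Irg1-/- libraries, against 1921, 1112 and 1439 CPM in wild-type libraries, so the first pair did not differ in the direction of the others (with the block -0.51 ± 0.11, adjusted p = 0.00126). Parp14 differed by -0.31 ± 0.09 with the block (adjusted p = 0.0239). These called changes were 1.24- to 1.48-fold in size. Ifnb1 was detected in all 6 libraries, with 5.16, 8.49 and 8.48 CPM in Irg1-/- libraries and 5.65, 7.67 and 7.08 CPM in wild-type libraries, which overlapped (log2 0.11 ± 0.33, adjusted p = 0.984). No listed sensing, regulatory factor or brake gene was called without the block.

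**Figure D5:**
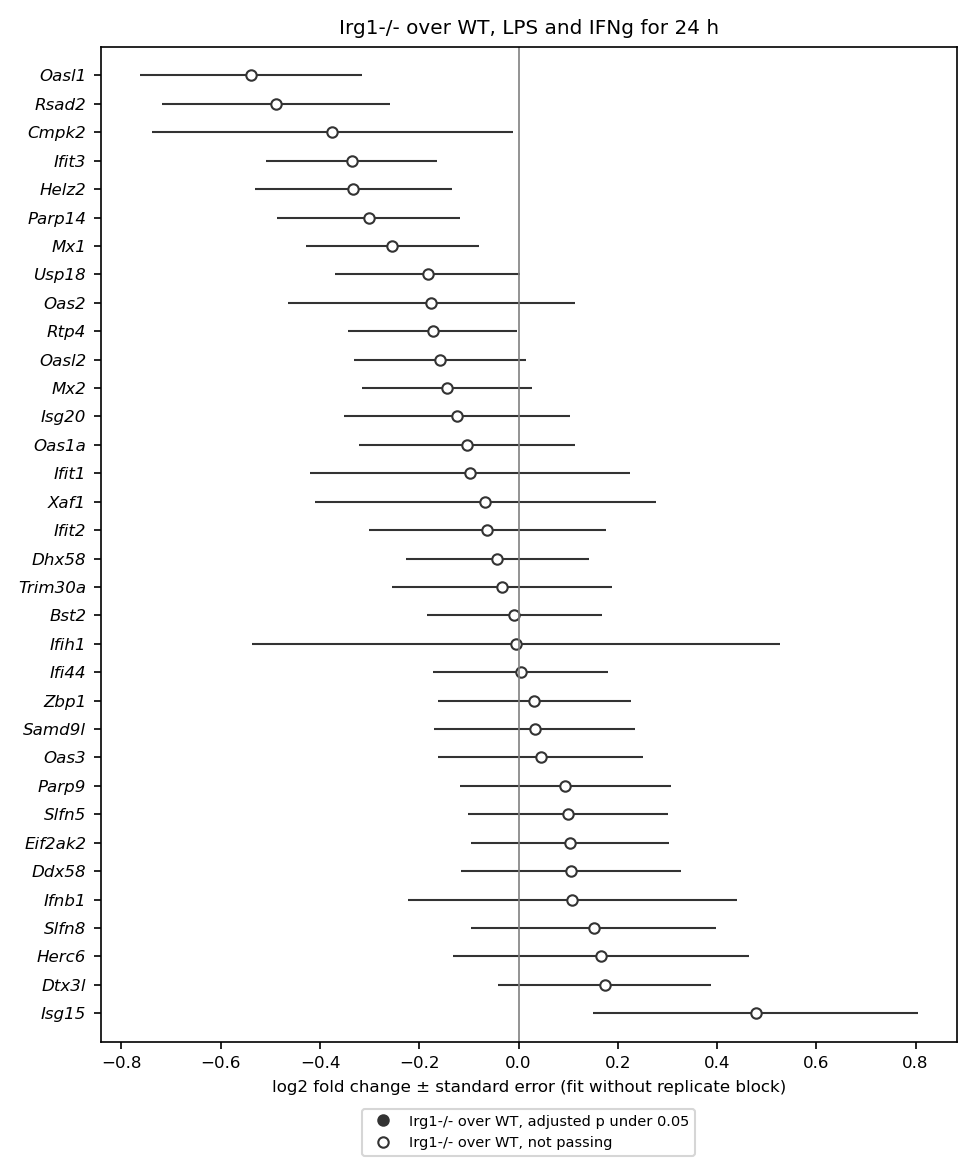
Log2 fold change ± standard error of each tested member in Irg1-/- over wild-type cells, both with LPS and interferon gamma for 24 h, from the fit without the replicate block. All 34 points are open, and they run from Oasl1 at -0.54 to Isg15 at 0.48.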

How the data were processed

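The authors deposited raw counts per gene for 18 libraries in 2 tables with Entrez identifiers. Per the submitters' processing notes, STAR, HTSeq, DESeq2 and build mm10 were used, with no versions. No source used here gives the annotation or the strand option of the counting, so genes that overlap (Parp9 and Dtx3l, Ifit1 and Ifit1bl1, Rtp4 and Masp1, Slfn5 and Slfn5os, Eif2ak2 and Gm6548) and close paralogues (Ifit3, Oas1a, Slfn8, Trim30a) are uncertain. Per the labels' protocols, oligo-dT primed cDNA was pooled by Actb level and amplified over 12 PCR cycles into strand-specific libraries. No molecular identifiers are described, so intervals and floors cover counting error only.

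The members and gene lists were chosen with earlier results of these data known. A further list, of interferon receptor and signalling genes, is not reported here. Symbols, positions and promoters come from RefSeq on GRCm38.p6. Each experiment was fitted whole with edgeR 4.0.16 in R 4.3.3 (TMM factors 0.576 to 1.47 and 0.967 to 1.05, filterByExpr with a minimum count of 10, prior count 0.125). Its 2-sided quasi-likelihood F test gave p-values, adjusted after Benjamini-Hochberg over every tested gene, with 8 and 4 residual degrees of freedom in the fits without a block. The 4 groups of experiment 1 share 1 estimate of the spread. The tests were tried on simulated counts first. Alternatives were DESeq2 1.42.0 size factors and test, no filter, a replicate block, only the 2 groups compared, leaving out each library and, chosen after seeing the data, unscaled totals. Values in every library are given for Ifnb1 and, per comparison, for the 4 called members with the largest change, filled up by smallest p. Other members were given after their values were seen, because they just missed the threshold, showed the pairing or were called with the block. Same-numbered libraries of experiment 2 deviated together (correlations 0.374, 0.354 and 0.455), so the blocked fit is given beside that comparison. In no comparison of experiment 1 did all 3 pairs pass 0.1.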

Additional observations from a re-analysis of the deposited data

Results flagged for a closer look

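The response of Rsad2 to DI differed between cells with and without LPS, by a test of the difference itself in edgeR's quasi-likelihood fit. The interaction was -2.41 ± 0.52 on the log2 scale (adjusted p = 0.0157). All 3 DI+LPS libraries were below all 3 LPS libraries for Rsad2, without passing the threshold (-0.91, adjusted p = 0.101), and all 3 DI libraries were above all 3 vehicle libraries (1.51, adjusted p = 0.0316). The call was lost when any 1 of 5 libraries was left out, as listed in the results.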

How the results depend on the processing

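Counts of members called, out of 34, moved by over 1.5 times in these cases, and the cause was not tested. For DI over vehicle, 6 members were lower (1.51% of all genes were), 10 without the filter (1.52%) and 10 with the DESeq2 test (3.25%). With 1 library left out 2 to 9 were lower (9 without LPS replicate 3, where 3.28% of all genes were). The 1 higher member (1.33% of all genes) was lost on unscaled totals (0, where 0.700% of all genes were higher), and leaving out 1 library gave 0 to 1. For DI+LPS over LPS, 6 were lower (7.53% of all genes) and 13 with the DESeq2 test (9.93%). With 1 library left out 2 to 16 were lower (16 without LPS replicate 3, where 9.06% of all genes were). For the interaction, 1 was lower (1.52% of all genes), 3 without the filter (1.79%), 2 with the DESeq2 test (3.70%) and 0 to 2 with 1 library left out. None was higher (1.39% of all genes were), but 1 was without the filter (1.62%), with the DESeq2 test (3.68%) and on unscaled totals (2.09%), and 0 to 1 with 1 library left out. For Irg1-/- over wild type, 0 were called, and with the replicate block 1 was higher (2.90% of all genes) and 5 lower (3.36%). In experiment 1 the replicate block changed no count of members called. Counts for LPS over vehicle (33 or 34 higher) and DI+LPS over DI (33 or 34 higher, with Ifnb1 not passing the filter when only those groups were fitted) kept within that limit under every alternative run.

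Signs turned for Oasl1 in DI+LPS over LPS on unscaled totals (0.14), with -0.19 to 0.12 over the left-out libraries, and for Ifnb1 in Irg1-/- over wild type (-0.00599 to 0.32 over the left-out libraries). Under the replicate block, unscaled totals and some left-out libraries, 1 to 4 of the 34 DI+LPS over LPS estimates were positive, among Ifih1, Oas1a, Oas3, Oasl1, Parp9 and Parp14. Scaling moved the median of all genes: on unscaled totals it was -1.17 for LPS over vehicle, -0.25 for DI over vehicle, 0.28 for DI+LPS over LPS, -0.65 for DI+LPS over DI and 0.52 for the interaction. The members' medians there were 3.21, -0.76, -0.57, 3.90 and 0.34. Unscaled totals also moved the split of calls over the whole table, given as higher and lower genes: 853 and 4950 for LPS over vehicle (1641 and 1888 with TMM), 72 and 194 for DI over vehicle (137 and 155), 901 and 527 for DI+LPS over LPS (862 and 774), 709 and 2027 for DI+LPS over DI (1170 and 778; 1030 and 1014 with DESeq2 size factors), and 215 and 86 for the interaction (143 and 156). The members there counted 33 higher, 7 lower, 5 lower, 34 higher, and 1 higher with 1 lower. DI over vehicle rose to 557 and 456 genes when only those groups were fitted. Irg1-/- over wild type called 1 and 5, and 275 and 319 with the block. With 3 libraries a group and 955718 counts in the shallowest, changes of low genes such as Ifnb1 and Oas1a carry wide errors.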
